A study of Mus musculus with 11 samples.

Results

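The immediate early genes examined here were Fos, Fosb, Jun, Junb, Egr1, Atf3, Ier2, Ier3, Dusp1 and Zfp36, a listed set of 10 genes out of 19057 with a probe on the array. All probes annotated to them were used, 11 in all, since Junb had 2 probes and every other gene had 1. Each was read in 11 mammary tumours of female mice killed at 12 weeks of age, 1 array per tumour. Of these, 6 tumours came from mice of the PyMT genotype and 5 from mice of the PyMT/SIRT6 genotype. All carried the polyoma middle T transgene (PyMT), and the PyMT/SIRT6 mice also carried the Sirt6BAC allele, which overexpresses a functional SIRT6 protein, a chromatin deacylase. The labels name no promoter for either transgene, and leave unsaid whether any mouse gave more than 1 tumour. The p-values therefore reflect only how these tumours vary, which may in part be technical.

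Immediate early genes are switched on within minutes of a stimulus, without new protein synthesis, when kinase cascades such as ERK, JNK and p38 act on factors already bound at their promoters. Middle T drives such cascades itself, through Src, phosphatidylinositol 3-kinase and Ras. Growth factors, wounding, loss of blood flow and tissue handling are also known to induce these genes, and their transcripts are short-lived. The products fall into groups: Fos, Fosb, Jun and Junb are subunits of the AP-1 transcription factor, Atf3 is a related stress-induced factor of the bZIP class, and Egr1 is a zinc finger factor. Ier3 modulates survival and ERK signalling, Dusp1 dephosphorylates MAP kinases, and Zfp36 (tristetraprolin) speeds the decay of messages with AU-rich elements. The labels state that tissue was removed quickly and frozen in liquid nitrogen but give no interval, so the part of handling in any value below was not tested.

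The arrays shared their quantiles as deposited, with a median intensity of 157.5 to 157.6 on each and a lowest value of 116.7. A probe near that median is close to background, and no background subtraction was visible, so fold differences of dim probes are understated. Sirt6 separated the genotypes, at 7.64 to 7.88 on the log2 scale in PyMT and 8.19 to 8.64 in PyMT/SIRT6 tumours. The luminal keratins marked the tissue as epithelial in every tumour, Krt8 at 12.23 to 13.40 and Krt18 at 11.04 to 12.00, while the Epcam probe stayed near background at 7.15 to 7.35. Skeletal muscle markers, a list of 20 tested genes, stood high in PyMT replicate 5 (mean 3.25 log2 units above each gene's median over the arrays) and in PyMT/SIRT6 replicates 1, 4 and 5 (1.57, 2.27 and 3.05). Transcripts of muscle were thus abundant in these 4 tumours. In whole tumours, fewer cells of a type and less RNA per cell cannot be told apart.

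Of the 10 genes 9 were measured above the filter for dim features, which kept those with a mean intensity of at least 158.6. The exception was Ier2, whose probe lay between 140.0 and 158.3 in all 11 tumours, so the array gave no usable level for it. The second Junb probe, ILMN_1254833, which the platform annotation ties to a different accession, was equally dim at 142.6 to 171.1 and was not used for the level of Junb. The remaining probes ranged from Fosb, with a median of 7.36 on the log2 scale, to Ier3, with a median intensity of 3775.1 in PyMT tumours. Levels of different probes are not comparable with each other.

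The AP-1 subunit genes Fos and Fosb and the bZIP gene Atf3 were each highest in the same tumour, PyMT replicate 1. Fos had an intensity of 949.5 there, against a lowest value of 365.0 and a median of 527.5 among the PyMT tumours. The PyMT/SIRT6 tumours had Fos intensities of 456.5, 544.9, 534.7, 482.5 and 610.5 in replicates 1 to 5. The Fos values of the other 10 tumours thus lay below PyMT replicate 1, and the PyMT/SIRT6 tumours fell inside the PyMT range. The low end was PyMT replicate 5, one of the tumours with muscle RNA. Another of these, PyMT/SIRT6 replicate 5, had the highest Fos after PyMT replicate 1, and the part of muscle was not tested.

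Fosb was near background in all tumours but this one. It ran from 152.6 to 273.4 in PyMT tumours with a median of 167.2, and the highest value was again PyMT replicate 1. Fosb in the PyMT/SIRT6 tumours read 162.7, 174.4, 157.5, 165.3 and 160.6. On the log2 scale PyMT replicate 1 stood at 8.09 and the next highest tumour, PyMT/SIRT6 replicate 2, at 7.45.

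Atf3, which is induced by amino acid, oxidative and DNA damage stress, had an intensity of 394.5 in PyMT replicate 1. The other PyMT tumours lay between 212.2 and 250.5. The PyMT/SIRT6 tumours read 239.2, 194.8, 264.0, 243.4 and 222.4 for Atf3. Here too a single tumour stood apart, and the lowest value was in PyMT/SIRT6 replicate 2.

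**Figure D1:**
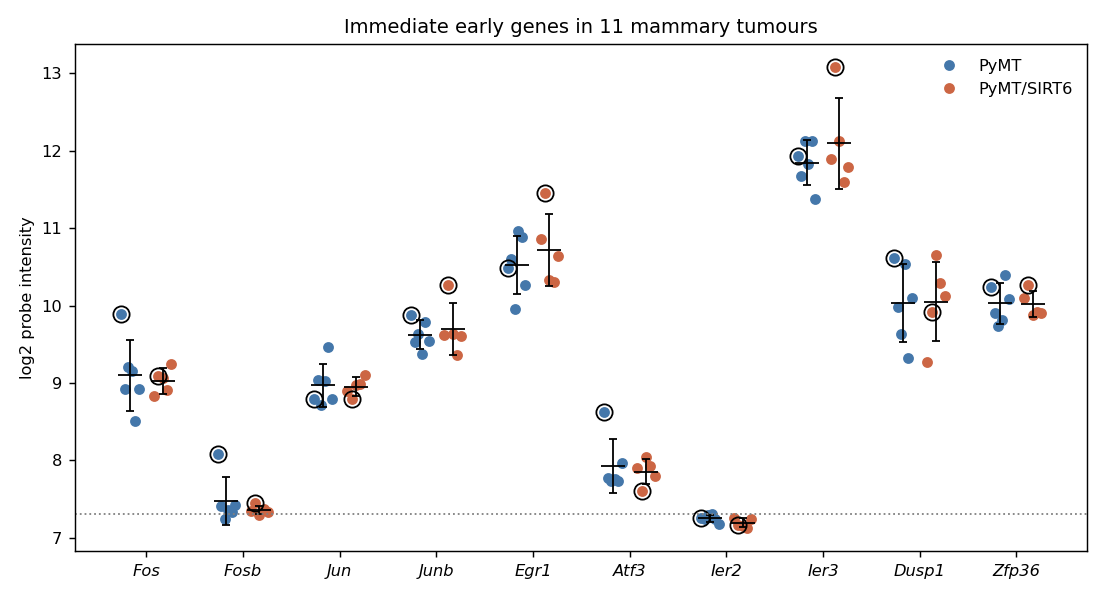
Log2 probe intensity of each immediate early gene (brightest probe) in the 6 PyMT and 5 PyMT/SIRT6 tumours, 1 point per tumour, with bars for the mean and SD of each genotype. Black rings mark PyMT replicate 1 among the PyMT points and PyMT/SIRT6 replicate 2 among the PyMT/SIRT6 points, and the dotted line is the filter limit of 7.309. PyMT replicate 1 tops Fos, Fosb and Atf3, PyMT/SIRT6 replicate 2 tops Junb, Egr1 and Ier3, and Ier2 lies around the limit in every tumour.

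Junb, Egr1 and Ier3 were highest in a different tumour, PyMT/SIRT6 replicate 2. Egr1 ran from 986.8 to 1985.3 in PyMT tumours, with a median of 1490.3. Egr1 intensities in PyMT/SIRT6 tumours were 1853.3, 2806.3, 1286.1, 1271.4 and 1599.9. Replicate 2 exceeded all PyMT tumours, while the other PyMT/SIRT6 tumours overlapped them.

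Ier3 showed the widest single departure of the set on the deposited scale, though not after background subtraction, described below. PyMT tumours had Ier3 intensities of 2668.1 to 4492.6. The PyMT/SIRT6 tumours read 3802.8, 8636.9, 4466.6, 3073.6 and 3548.3, so replicate 2 was 1.18 log2 units above the median of the 11 tumours.

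Junb ran from 664.6 to 943.3 in PyMT tumours with a median of 768.8. Junb in PyMT/SIRT6 tumours was at 787.9, 1228.7, 794.4, 655.7 and 783.3. In this tumour Fos, at 0.03 above its median, Fosb, at 0.08, and Atf3, at 0.19 below it, were not raised. Conversely Egr1 was 0.13 below its median in PyMT replicate 1 and Ier3 0.04 above it.

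Jun, Dusp1 and Zfp36 peaked in neither PyMT replicate 1 nor PyMT/SIRT6 replicate 2. Jun, the AP-1 partner of Fos, ran from 422.6 to 705.6 in PyMT tumours with a median of 480.3, and was 478.0, 442.7, 504.4, 508.6 and 551.9 in PyMT/SIRT6 tumours. Its highest value was in PyMT replicate 5, which also had the highest Zfp36 (1349.8) and the highest skeletal muscle level of all tumours. In the other tumours with abundant muscle transcripts, PyMT/SIRT6 replicates 1, 4 and 5, Zfp36 read 1094.2, 969.3 and 963.5. The part of muscle in these values was not tested.

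Dusp1 varied most of the 10 genes by SD (0.48 on the log2 scale over the 11 tumours). It was 638.2 to 1567.8 in PyMT tumours, with a median of 1054.9. In PyMT/SIRT6 tumours Dusp1 was at 618.6, 970.6, 1604.8, 1254.1 and 1117.1. The top values were thus shared by PyMT/SIRT6 replicate 3, PyMT replicate 1 and PyMT replicate 4 (1484.5), and the bottom ones by PyMT/SIRT6 replicate 1 and PyMT replicate 5. Muscle transcripts were abundant in both of the latter and in PyMT/SIRT6 replicates 4 and 5, and their part in the Dusp1 values was not tested.

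Zfp36 was narrower, at 847.0 to 1349.8 in PyMT tumours with a median of 1020.8. PyMT/SIRT6 tumours had Zfp36 at 1094.2, 1230.6, 942.9, 969.3 and 963.5. PyMT/SIRT6 replicate 2 and PyMT replicate 1 (1207.1) lay 0.34 and 0.32 above the median, below PyMT replicate 5 alone. The genotypes overlapped throughout.

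**Figure D2:**
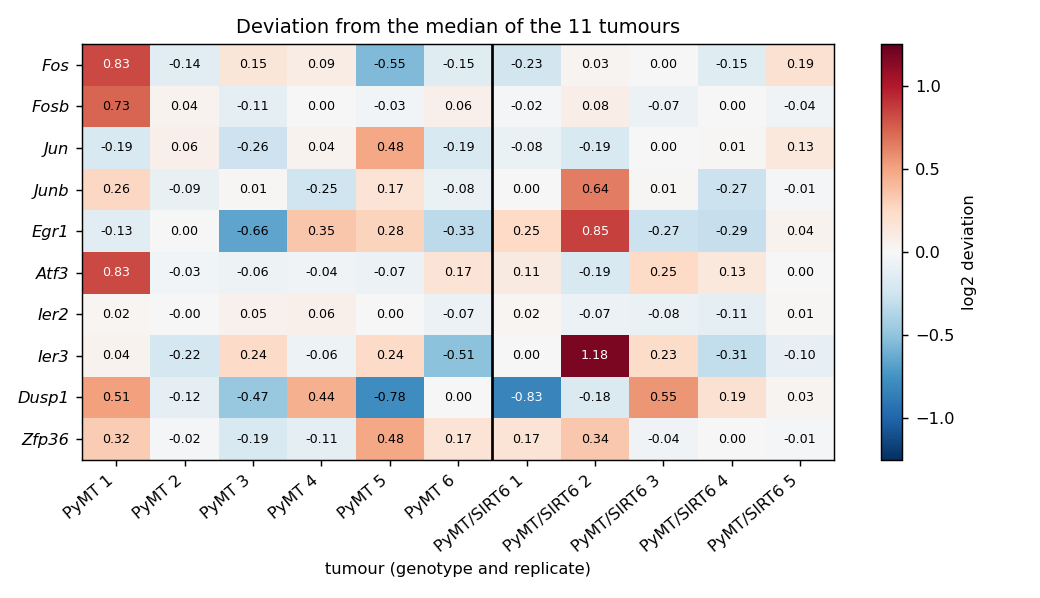
Deviation of each immediate early gene (rows) from its median over the 11 tumours (columns), in log2 units, with the 6 PyMT tumours left of the line and the 5 PyMT/SIRT6 tumours right of it. The deviations of 0.83, 0.73 and 0.83 for Fos, Fosb and Atf3 fall in PyMT replicate 1 and those of 0.64, 0.85 and 1.18 for Junb, Egr1 and Ier3 in PyMT/SIRT6 replicate 2.

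Counted by tumour, no more than a few of the immediate early genes were raised in any tumour. A gene was counted as raised where it lay more than 1 log2 unit above its median over the tumours. By this count 1 of the 10 genes, Ier3, was raised in PyMT/SIRT6 replicate 2, and 0 in PyMT replicate 1. The same held for 0.387% and 0.244% of all 14726 tested features in these tumours. At 0.5 log2 units, a limit chosen after seeing the data, 4 genes were raised in PyMT replicate 1 (Fos, Fosb, Atf3 and Dusp1), 3 in PyMT/SIRT6 replicate 2 (Junb, Egr1 and Ier3) and 1 in PyMT/SIRT6 replicate 3 (Dusp1). The background shares at this limit were 2.11% in PyMT replicate 1, 3.87% in PyMT/SIRT6 replicate 2 and 0.991% in PyMT/SIRT6 replicate 3. The other 8 tumours had 0 genes raised at this limit, and no tumour had all genes raised at either limit.

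The mean deviation over the 10 genes, called the immediate early level below, gave the same 2 tumours. It was 0.32 in PyMT replicate 1 and 0.25 in PyMT/SIRT6 replicate 2, and between −0.13 and 0.06 in the other 9. Ier2, near background in every tumour, is included in this mean. Over the 9 tested members, without Ier2, the 2 tumours stood at 0.36 and 0.29. The low end was PyMT replicate 3, which had the lowest Fosb, Jun, Egr1 and Zfp36. The 6 PyMT tumours averaged 0.02 ± 0.16 (SD, n = 6). The mean of the others was 0.04 ± 0.13 (SD, n = 5), so the genotypes overlapped with 1 high tumour in each. All 9 tested members had a larger SD over the tumours than the median feature, with a median SD of 0.27 for the members and 0.13 for all tested features. Background intensity compresses dim probes on this scale, so this is a description only.

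Since Fosb and Atf3 are dim, their departure depends on how background is treated. With background subtracted by the normexp model, PyMT replicate 1 lay 1.57 above the median for Fosb, 1.34 for Atf3 and 0.98 for Fos. Bright genes moved little under it, with Ier3 at 1.21 and Egr1 at 0.90 in PyMT/SIRT6 replicate 2. The count of genes more than 1 log2 unit above their median became 2 in PyMT replicate 1 (Fosb and Atf3) and stayed at 1 in PyMT/SIRT6 replicate 2 (Ier3), beside 0.733% and 0.937% of all tested features. The tumours that stood highest for these 5 genes were the same. The mean deviation over the 10 genes, defined above, was 0.482 in PyMT replicate 1 and 0.234 in PyMT/SIRT6 replicate 2.

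The correlations between members come from the same values as the peaks above and are no separate evidence for groups. Across the 11 tumours 25 of the 45 pairs of members correlated positively and 20 negatively, with a median Pearson r of 0.05. Pairs with Ier2, whose probe was near background, are among them. Junb and Ier3 had r = 0.85 and Spearman rho = 0.84 (two-sided permutation p = 0.00459 and 0.00213, adjusted over the 45 pairs 0.207 and 0.0958), and r = 0.46 without PyMT/SIRT6 replicates 2 and 4, farthest from the median for Junb, or 0.63 without the 2 farthest for Ier3. Fosb and Atf3 had r = 0.84 but rho = 0.18 (permutation p = 0.0639 and 0.593, adjusted 0.411 and 0.818), and r turned to −0.43 without PyMT replicates 1 and 3, farthest for Fosb, or 0.01 without the 2 farthest for Atf3. Fos and Fosb had r = 0.74 and rho = 0.05 (permutation p = 0.0632 and 0.903, adjusted 0.411 and 0.945). Fos and Atf3 had r = 0.68 and rho = 0.11 (permutation p = 0.0594 and 0.755, adjusted 0.411 and 0.918). Both pairs had r = −0.45 without PyMT replicates 1 and 5, farthest for Fos. Without the 2 tumours farthest for the other gene, r was 0.05 for Fos with Fosb and −0.20 for Fos with Atf3. The positive r among Fos, Fosb and Atf3 thus rested on the tumours left out, which included PyMT replicate 1 each time. Of all pairs 3 had a permutation p under 0.05 for r (Junb with Ier3, Junb with Zfp36 and Fos with Dusp1), and 0 passed after adjustment for either coefficient.

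Promoter sequence was compared for the genes that were highest in PyMT replicate 1 (Fos, Fosb and Atf3) and in PyMT/SIRT6 replicate 2 (Junb and Ier3). Dusp1, which varied most, is shown for its full cAMP response element, and Zfp36 for its serum response element. RefSeq promoters on GRCm38.p6 were matched for 8 members. Jun, whose window held no match to the serum response, cAMP response or AP-1 elements, is not printed, nor are Ier2 and Egr1. The 250 bases before the start of transcription are printed below 5′ to 3′ on the gene's strand. Capitals mark every match to TGACG, the core of the cAMP response element bound by CREB and ATF factors, on either strand, including those inside the full element TGACGTCA, and in Zfp36 the serum response element.
Fos (chr12:85473640-85473889, plus strand): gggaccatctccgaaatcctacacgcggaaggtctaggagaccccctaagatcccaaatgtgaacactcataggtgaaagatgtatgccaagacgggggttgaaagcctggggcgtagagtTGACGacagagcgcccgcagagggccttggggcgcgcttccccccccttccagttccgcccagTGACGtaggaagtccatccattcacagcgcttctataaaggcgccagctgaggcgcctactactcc
Fosb (chr7:19310046-19310295, minus strand): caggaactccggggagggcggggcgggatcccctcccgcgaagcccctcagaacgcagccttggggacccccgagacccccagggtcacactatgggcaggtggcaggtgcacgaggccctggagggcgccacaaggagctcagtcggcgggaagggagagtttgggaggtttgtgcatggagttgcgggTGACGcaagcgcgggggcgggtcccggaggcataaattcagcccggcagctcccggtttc
Atf3 (chr1:191183334-191183583, minus strand): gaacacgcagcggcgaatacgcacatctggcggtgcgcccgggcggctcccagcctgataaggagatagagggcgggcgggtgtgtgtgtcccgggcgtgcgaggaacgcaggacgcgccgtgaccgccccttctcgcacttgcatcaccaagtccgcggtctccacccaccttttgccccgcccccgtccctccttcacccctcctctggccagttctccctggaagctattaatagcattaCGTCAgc
Dusp1 (chr17:26508473-26508722, minus strand): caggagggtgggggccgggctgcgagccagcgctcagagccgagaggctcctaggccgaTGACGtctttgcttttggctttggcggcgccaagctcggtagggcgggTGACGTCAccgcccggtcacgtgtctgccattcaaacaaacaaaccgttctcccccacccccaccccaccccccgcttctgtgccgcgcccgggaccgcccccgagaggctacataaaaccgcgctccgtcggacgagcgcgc
Junb (chr8:84978749-84978998, minus strand): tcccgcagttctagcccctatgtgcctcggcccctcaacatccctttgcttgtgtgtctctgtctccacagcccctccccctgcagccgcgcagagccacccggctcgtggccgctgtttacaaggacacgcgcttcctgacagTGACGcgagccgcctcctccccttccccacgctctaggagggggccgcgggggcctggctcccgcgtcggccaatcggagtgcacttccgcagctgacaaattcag
Ier3 (chr17:35821463-35821712, plus strand): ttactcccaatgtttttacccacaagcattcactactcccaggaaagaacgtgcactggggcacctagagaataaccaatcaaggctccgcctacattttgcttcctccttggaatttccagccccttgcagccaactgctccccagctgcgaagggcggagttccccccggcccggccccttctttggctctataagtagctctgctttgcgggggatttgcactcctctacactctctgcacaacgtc
Zfp36 (chr7:28379229-28379478, minus strand): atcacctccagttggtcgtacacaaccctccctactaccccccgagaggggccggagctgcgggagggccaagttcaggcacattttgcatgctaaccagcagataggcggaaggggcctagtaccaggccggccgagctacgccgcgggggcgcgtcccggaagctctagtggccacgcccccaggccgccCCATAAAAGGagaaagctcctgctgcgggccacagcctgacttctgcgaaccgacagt

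The core was present in 5 of the 8 windows, Fos, Fosb, Atf3, Dusp1 and Junb, and in 17.8% of all 32851 windows of the same length. The windows of Fos, Fosb and Atf3 held it, as did that of Junb, and that of Ier3 did not. Counted from the start, the Fos matches lay at −129 to −125 and −66 to −62, and the Atf3 match at −7 to −3 on the opposite strand. The full element, which contains the core, was in the Dusp1 window and in 1.55% of all windows. The serum response element, searched on both strands, had 1 match, in Zfp36, against 1.47% of all windows, and the AP-1 site TGANTCA had 0 matches among the 8 windows against 6.75% of all. A match describes letters in the window and shows no binding, and a missing match says only that these letters are not in it.

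The design asks whether immediate early genes differ between tumours with and without the extra Sirt6 allele, and none of the members passed. In limma's fit over all features 0 of the 9 tested members had an adjusted p below 0.05, and 0 had an unadjusted p below it. Over all 14726 features 0.0136% passed after adjustment, which were Tle5 and Tle6, and 4.43% at an unadjusted p below 0.05. Of the members 4 had positive and 5 negative changes, with a median of −0.012 on the log2 scale beside −0.005 over all tested features. The lowest adjusted p of any member was 0.983.

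Ier3 had the largest positive value, 0.25 ± 0.23 (SE, log2, PyMT/SIRT6 minus PyMT), a 1.19-fold difference with a 95% interval of 0.84 to 1.69-fold. Egr1 followed at 0.20 ± 0.23, with an interval of 0.82 to 1.61-fold. The two-sided exact permutation p over the tumours was 0.476 for Ier3 and 0.468 for Egr1. Without PyMT/SIRT6 replicate 2, the tumour in which both were highest, the changes were 0.002 and 0.013. The largest negative value was that of Fosb, −0.12 ± 0.12, with an interval of 0.77 to 1.10-fold. Without PyMT replicate 1 it was 0.00, and the change of Fos went from −0.07 to 0.09 and that of Atf3 from −0.08 to 0.06. Junb differed by 0.07 ± 0.15 and, without PyMT/SIRT6 replicate 2, by −0.07.

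Jun, Dusp1 and Zfp36 differed by −0.02 ± 0.13, 0.02 ± 0.27 and −0.01 ± 0.14. Their intervals were 0.81 to 1.20-fold, 0.68 to 1.51-fold and 0.81 to 1.22-fold. The data thus allow a Dusp1 level in PyMT/SIRT6 tumours anywhere from 0.68 to 1.51 times that in PyMT tumours, and the test does not show that the genotypes are alike. The dim probes outside the filter were read in a fit of all probes. Ier2 was at −0.06 ± 0.03 (limma adjusted p = 0.979) and the second Junb probe at 0.08 ± 0.03 (limma adjusted p = 0.979, unadjusted p = 0.0215), both within background intensities.

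**Figure D3:**
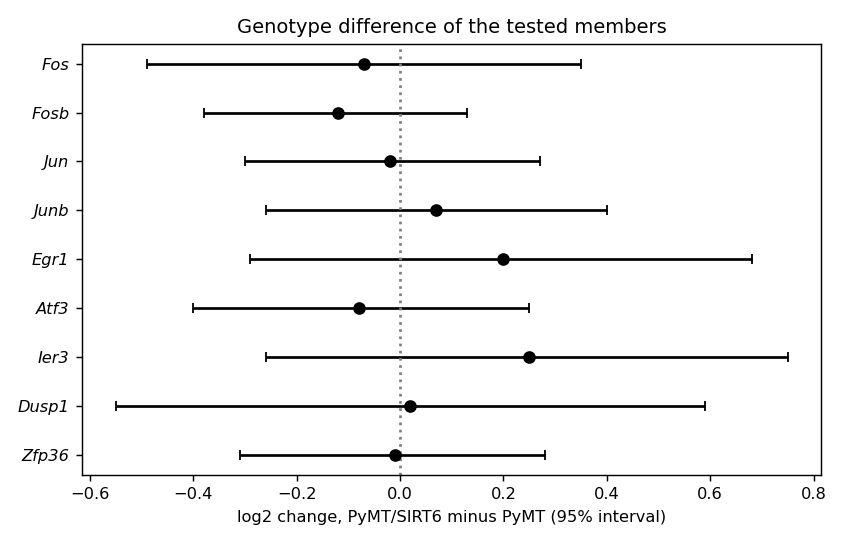
Log2 change, PyMT/SIRT6 minus PyMT, of the 9 tested immediate early genes, with limma's 95% confidence interval from 6 and 5 tumours. Every interval crosses 0, from Fosb at −0.12 to Ier3 at 0.25.

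The arrays were deposited in runs of genotypes, and the labels give no scan or chip. Among the first 6 arrays deposited, 3 of each genotype, Egr1 differed by 0.54 and Ier3 by 0.45, and Fos by −0.34. Among the last 5 these were −0.23, −0.09 and 0.22. Of the 10 members 8 had opposite signs in the 2 parts of the deposit, and both tumours with a high immediate early level lay in the first.

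Other genes of the early response were described in lists that do not include the 10 members. Of 22 tested early transcription factors 0 passed in limma in either direction, with 1 higher and 2 lower at an unadjusted p below 0.05. Klf10, a factor induced by TGF-beta, differed by 0.19 ± 0.04 (limma adjusted p = 0.502) and the clock and early gene Per1 by −0.42 ± 0.16 (limma adjusted p = 0.983). Csrnp1, a nuclear protein of the early response, was the gene of this list most like the immediate early level (r = 0.85 over 11 tumours), and stood 0.60 above its median in PyMT replicate 1 and 0.71 in PyMT/SIRT6 replicate 2. Ier5l (r = 0.67), Nr4a2, an orphan nuclear receptor (0.66), and Sox9 (0.51) followed.

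Among 10 tested further AP-1 and ATF genes 0 passed, with 0 higher and 1 lower, Jdp2, at an unadjusted p below 0.05 in limma. Their mean deviation was −0.04 in PyMT replicate 1 and 0.03 in PyMT/SIRT6 replicate 2, so neither tumour had a raised AP-1 list beyond the named members. Fosl2, the Fra-2 subunit, was highest in PyMT replicate 1, at 0.31 above its median over the tumours. Of 26 tested early response genes 0 passed, with 0 higher and 1 lower (Mcl1, a survival factor, −0.22 ± 0.09) at an unadjusted p below 0.05 in limma. Cdkn1a, which encodes the cell cycle inhibitor p21, was 1.66 above its median in PyMT replicate 1 and 1.26 above in PyMT/SIRT6 replicate 2, the highest and next highest of the 11 tumours.

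Feedback genes were highest on average in PyMT/SIRT6 replicate 2 and at their median level in PyMT replicate 1. Of 15 tested genes 0 passed in limma between genotypes, with 0 at an unadjusted p below 0.05. Of these 14 lay above their median in PyMT/SIRT6 replicate 2 and 6 in PyMT replicate 1, with mean deviations of 0.30 and 0.00. Of all tested features 47.7% and 44.8% lay above their median in these tumours. The list was also high in PyMT replicate 2 (0.22, 11 of 15) and PyMT replicate 5 (0.16, 10 of 15), whose immediate early levels were −0.05 and 0.02. Dusp6, the ERK phosphatase, was 0.55 above its median in PyMT/SIRT6 replicate 2 and 0.18 below it in PyMT replicate 1. The highest PyMT tumour was nearly level with PyMT/SIRT6 replicate 2 for Dusp6 (11.72 and 11.74 on the log2 scale). Spry4, an inhibitor of receptor tyrosine kinase signalling, was 0.41 above its median in PyMT/SIRT6 replicate 2 and 0.09 below in PyMT replicate 1. Etv5, an ETS factor that ERK signalling is known to induce, was 1.59 above its median in PyMT/SIRT6 replicate 2 and 0.06 below in PyMT replicate 1. Etv4 was highest in PyMT replicate 3 (8.46 on the log2 scale, with 8.36 in PyMT/SIRT6 replicate 2). Etv5 and Etv4 were chosen after their values were seen. Dusp4, another MAP kinase phosphatase, went the other way, 0.18 above in PyMT/SIRT6 replicate 2 and 0.74 above in PyMT replicate 1. Of 16 upstream kinases and factors 0 passed and 0 had an unadjusted p below 0.05 in limma, and their mean deviations were 0.02 in PyMT replicate 1 and 0.04 in PyMT/SIRT6 replicate 2.

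**Figure D4:**
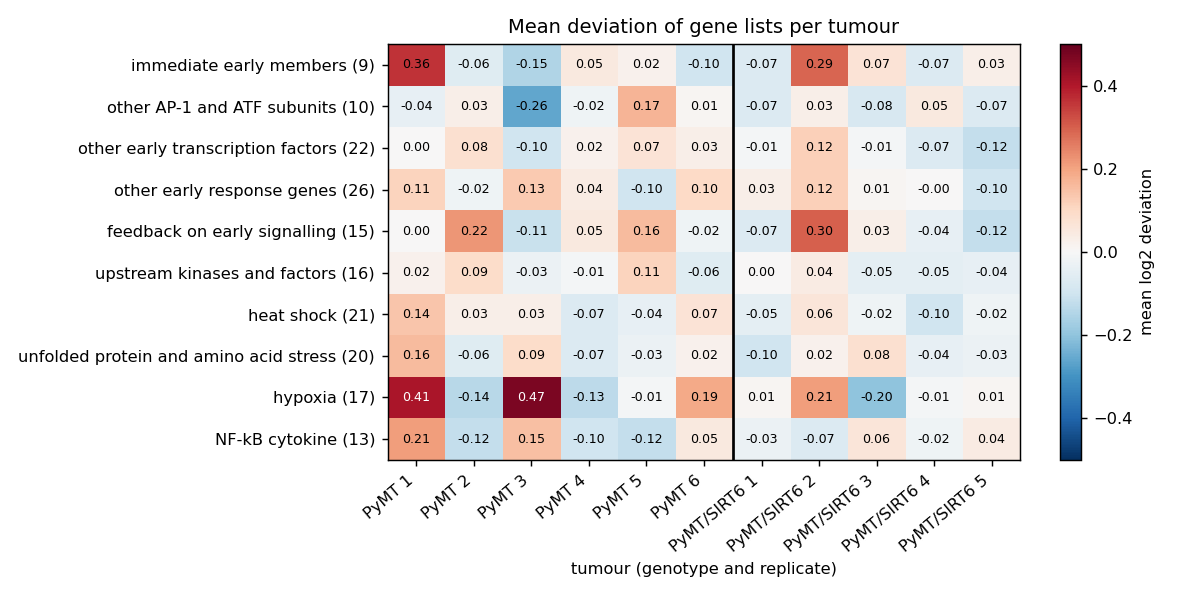
Mean deviation of gene lists (rows, number of tested genes in brackets) from each gene's median over the 11 tumours, in log2 units. The top row has 0.36 in PyMT replicate 1 and 0.29 in PyMT/SIRT6 replicate 2 over its 9 tested members, the feedback row peaks at 0.30 in PyMT/SIRT6 replicate 2, and the heat shock row stays between −0.10 and 0.14.

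Stress programmes were read beside them, since stress and handling induce both. The mean deviation of the heat shock chaperones stayed between −0.10 and 0.14 in every tumour. Single genes of the list varied more, with a median SD of 0.23 over the tumours beside 0.13 for all tested features. Of 21 tested genes 0 passed in limma between genotypes, with 0 higher and 2 lower (Hspb8 and Hspa4) at an unadjusted p below 0.05. Their mean deviation was highest in PyMT replicate 1, at 0.14, where 1 of the 21, the small heat shock protein gene Hspb8, was more than 0.5 above its median (by 1.11). The inducible chaperones Hspa1a and Hspa1b, chosen after their values were seen, were highest in PyMT/SIRT6 replicate 2, at 0.49 and 0.36 above their medians, and were 0.16 and 0.01 above in PyMT replicate 1. For Hspa1b the next highest tumour was nearly level with it (8.03 and 8.04 on the log2 scale).

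Genes of the unfolded protein and amino acid stress responses had their highest mean deviation, 0.16, in PyMT replicate 1, where 5 of 20 exceeded 0.5, among them Asns, asparagine synthetase, at 0.87 and the stress gene Ddit4 at 0.75. PyMT replicate 3, the tumour with the lowest immediate early level, followed with 4 of 20 over 0.5 and a mean of 0.09, and Ddit4 was highest there. Of all tested features 2.11% exceeded 0.5 in PyMT replicate 1 and 2.81% in PyMT replicate 3. Between genotypes 0 of the 20 passed in limma, with 1 higher (Sdf2l1) and 0 lower at an unadjusted p below 0.05. Of 17 tested hypoxia genes 0 passed in limma, with 1 higher (Pfkfb4) and 1 lower (Ndrg1) at an unadjusted p below 0.05. The hypoxia level was 0.41 in PyMT replicate 1, 0.47 in PyMT replicate 3 and 0.21 in PyMT/SIRT6 replicate 2. PyMT replicate 3 was thus highest for the hypoxia list, though lowest for the immediate early level. PyMT replicate 1 and PyMT/SIRT6 replicate 2, highest for the immediate early level, ranked 2 and 3 of the 11 tumours for hypoxia. The part of hypoxia in the immediate early values was not tested. Of 13 NF-kB cytokine genes 0 passed in limma, with 0 higher and 1 lower (Cxcl10) at an unadjusted p below 0.05. Their mean deviation was highest in PyMT replicate 1, at 0.21, followed by PyMT replicate 3 at 0.15, and was −0.07 in PyMT/SIRT6 replicate 2. Il1b, a gene of this list, was 0.80 above its median in PyMT replicate 1.

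Markers of other cells also moved with the 2 tumours. PyMT replicate 1 had the highest haemoglobin Hba-a1 of all tumours, 2.70 above the median, and the highest blood list (1.68, both of its 2 tested genes above their median), while the list ran from −0.99 to 1.05 in the other PyMT and from −0.92 to 0.35 in the PyMT/SIRT6 tumours. It had the highest neutrophil list (0.40, 4 of 6 above the median), where the others ran from −0.39 to 0.05. That mean came from Ltf (1.00 above its median), S100a8 (0.84) and S100a9 (0.62). The milk genes Csn1s1, Csn2 and Wap were also high in this tumour, at 2.15, 2.11 and 1.86 above their medians. Which cells gave the Ltf signal was not tested. Csf3r (−0.01), Mmp9 (0.02) and Lcn2 (−0.08) were near their medians, and S100a9 was highest in PyMT replicate 3. PyMT replicate 1 also had the lowest skeletal muscle list (−0.92, 0 of 20 above), where the others ran from −0.90 to 3.25. PyMT/SIRT6 replicate 3 was nearly level with it (−0.90, 1 of 20 above), and PyMT replicate 3 was close (−0.78, 0 of 20 above). In PyMT replicate 1, 44.8% of all tested features lay above their median. PyMT/SIRT6 replicate 2 had the lowest adipocyte list (−0.59, 0 of 8 above), while the others ran from −0.52 to 0.77. Its endothelial list was the highest (0.11, 13 of 16 above), against −0.15 to 0.09. PyMT replicate 5 was close (0.09, also 13 of 16). The B and plasma cell list was highest in PyMT/SIRT6 replicate 2 too (0.49, both of its 2 tested genes above), mostly through Pou2af1 (0.87, with Mzb1 at 0.11). Both genes were also above their medians in PyMT replicates 2, 3 and 6, with a mean of 0.40 in replicate 3. Of all tested features 47.7% lay above their median in PyMT/SIRT6 replicate 2. The part of these cells in the immediate early values was not tested. Muscle markers were at −0.92 and −0.59 in these tumours.

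Over the 11 tumours the genes most like the immediate early level were Lrfn1 (r = 0.94), Nipal3 and Il1a (0.90 each), Ino80e (0.88) and Afg3l1 (0.87), followed by Slc17a9, Trappc1, Cox10 and Gdpd5 (0.86 each) and Csrnp1 (0.85). Without PyMT replicate 1 and PyMT/SIRT6 replicate 2 these values fell to between 0.27 for Csrnp1 and 0.78 for Lrfn1. Several were dim, Lrfn1 running from 7.27 to 7.52 and Il1a, an inflammatory cytokine, from 7.31 to 7.51 on the log2 scale. The genes least like it were Zfp457 (−0.86), Awat2 (−0.85), and Prrx1, Zfp868 and Tmem59 (−0.82 each). These values describe 11 tumours over 11010 genes ranked.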

How the data were processed

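Gene expression was measured in 11 mammary tumours, 6 PyMT and 5 PyMT/SIRT6, grouped by the genotype label, with replicates numbered in deposit order. Per the labels' protocols, biotinylated cRNA was read on the Illumina Mouse WG-6 v2.0 chip. Each deposited value is a linear probe intensity, and the sorted values differed by at most 1.08% between arrays. The sources used here do not say how the authors treated background or normalized.

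Intensities were put on the log2 scale. The platform annotation gave 34885 of 45281 probes a single gene symbol, 18 several and 10378 none. The brightest probe of each gene was kept and the lower 50% of 29453 features were left out, leaving 14726. Genotypes were compared with limma 3.58.1 (lmFit, eBayes with trend, no covariate) and Benjamini-Hochberg adjustment over all tested features, after the fit was tested on simulated data. Tests were two-sided, and correlations used 100000 permutations. Alternatives changed the filter, probe choice, centring, background (normexp), eBayes options, array weights, deposit order, muscle covariate and arrays left out. Members and lists were chosen with earlier results of these data known. Named genes were all members, up to 4 genes per list by smallest p and by correlation with the immediate early level, and the 10 genes most and 5 least correlated with it, leaving out predicted models. The number of arrays limits the precision.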

Additional observations from a re-analysis of the deposited data

Results flagged for a closer look

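In 24 checks of a member, probe or level within a genotype, 2 had a tumour far from the others of its group by Dixon's criterion, where chance flags about 1 in 20. Both were PyMT replicate 1 among the 6 PyMT tumours, with Fosb at 8.09 and Atf3 at 8.62 on the log2 scale. The next highest PyMT tumour stood at 7.43 for Fosb and 7.97 for Atf3.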

How the results depend on the processing

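No paired analysis was run, since the replicate numbers follow deposit order within each genotype and mark no pairs. The numbers that open the titles all differ, and the letter codes after them were not interpreted. Under every alternative run, 0 immediate early genes passed in limma, the lowest adjusted p being 0.681. Of 214 changes of single members 190 kept their sign and 24 turned. With array weights Jun was at 0.015, Egr1 at −0.003 and Dusp1 at −0.136. With deposit order as a block Jun was at 0.005, and with the skeletal muscle covariate Fos was at 0.031. Without PyMT replicate 1 and PyMT/SIRT6 replicate 2 together, chosen after seeing the data, Fos was at 0.074, Junb at −0.016 and Atf3 at 0.124. Leaving out each array in turn gave −0.187 to 0.089 for Fos, −0.168 to 0.00 for Fosb, −0.065 to 0.083 for Jun, −0.068 to 0.159 for Junb, −0.124 to 0.062 for Atf3, −0.127 to 0.217 for Dusp1 and −0.074 to 0.063 for Zfp36. The cause was not tested. Features past the threshold numbered 2, against 4 with the mean of a gene's probes, normexp or array weights, 6 with every probe tested separately, 1 with the deposit order block, 1 without both arrays together, and 1 to 3 with each array left out. The immediate early level of PyMT replicate 1 went from 0.321 to 0.482 with normexp, a move near the SD within its genotype (0.16) and above that over all 11 tumours (0.14).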

Other observations

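Outside the early response, the largest departures of PyMT replicate 1 above the median of the 11 tumours were those of Bpifb5 (by 2.73), the haemoglobin genes Hba-a1 (2.70), Hbb-bs (2.49) and Hbb-bt (2.46), and the kallikrein Klk6 (2.34). The milk genes Csn1s1 (2.15), Csn2 (2.11) and Wap (1.86) and the gene Sftpd (1.97) came next. Fos and Atf3, each at 0.83, ranked 62 and 63 of 11019 named genes in that tumour, Fosb 90 and Dusp1 255.

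The largest departures of PyMT/SIRT6 replicate 2 were those of Them5 (2.32), the extracellular matrix protein gene Papln (2.15), the prohormone-processing enzyme gene Cpe (1.80), Rtn1 (1.72) and the kinase scaffold gene Akap12 (1.66). Comp (1.65), Etv5 (1.59), Prol1 (1.55) and the insulin receptor substrate Irs2 (1.52) were close behind. Ier3 ranked 37, Egr1 103 and Junb 271 there. These genes were chosen after their values were seen, and each value is that of 1 tumour.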
